A study of Mus musculus with 2 samples.

Results

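The Hedgehog pathway was examined in cultured fibro-adipogenic progenitors (FAPs) of the mouse, interstitial cells of muscle able to form adipocytes. Its members were 9 genes chosen by symbol, Gli1, Gli2, Gli3, Ptch1, Smo, Hhip, Sufu, Gas1 and Boc, and all 9 were found among the 44291 genes of the deposited files. Wild-type (WT) FAPs received either platelet-rich plasma (PRP), a platelet concentrate of blood, or the vehicle, and 1 library was sequenced per group, which made 2 libraries. Both cultures were under adipogenic differentiation, in a DMEM-based medium with 10 μg/ml insulin, 0.5 mM of the phosphodiesterase inhibitor IBMX, the glucocorticoid dexamethasone at 0.25 μM, and FBS at 20%. The labels name the treatment PRP, while the study itself speaks of transcriptomes of FAPs given exosomes from PRP of young donors, and the names of the labels are kept for both groups. The age of the mice behind these libraries and the number of animals pooled are not given in the labels.

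Hedgehog ligands bind the receptor Patched on the primary cilium, a small antenna of the cell surface, and thereby release Smoothened, which in turn lets the GLI transcription factors switch on their targets. In muscle, Schwann cells and endothelial cells are known sources of the ligand Desert hedgehog, FAPs carry cilia, and an active pathway restrains the turning of FAPs into adipocytes. Protein kinase A opposes the pathway by marking GLI proteins for processing into repressors, and IBMX, present in both cultures, raises the cyclic AMP that activates this kinase.

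The values are FPKM, reads scaled to the exon length of a gene and to the depth of its library. All 9 members gave whole read numbers in both libraries when this scaling was undone with totals of 40120843 reads in PRP and 34139741 in control. Mates of a pair were apparently counted singly, since 79.3% and 80.3% of the genes with up to 8 reads had an even number, so intervals were computed on reads divided by 2. They are exact 95% intervals (Poisson for a level, Clopper-Pearson for the ratio of PRP to control), cover counting error only, and compare these libraries and not the treatments. With no replicates, the spread between cultures is unknown and no difference has a p-value. FAP identity was visible in both libraries: of 10 FAP and fibroblast markers 9 averaged at least 1 FPKM over both libraries, and all 9 of these were lower in the PRP library (summed level of the list 415 against 649 FPKM, median log2 difference -0.47). In bulk RNA, fewer cells of a type and less RNA per cell cannot be told apart.

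The clearest difference among the Hedgehog genes was in the co-receptor gene Gas1, with a PRP level 0.314 times that of control. Gli2, Gli3 and Smo were lower by smaller factors that also exceeded counting error. Boc, Sufu, Ptch1 and Hhip had almost the same level in both libraries, and Gli1 was close to the detection limit in both. Of the 9 members, 6 had a lower and 3 a higher value in the PRP library, and the interval of the ratio lay below 1 for 4, above 1 for 0 and included 1 for 5. Of the 5 members that averaged at least 1 FPKM, it lay below 1 for 3 (Gas1, Gli3 and Smo). Among all 12369 such genes with whole reads, the interval lay below 1 for 26.1% and above 1 for 26.1%, so an interval off 1 is common between these libraries.

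**Figure D1:**
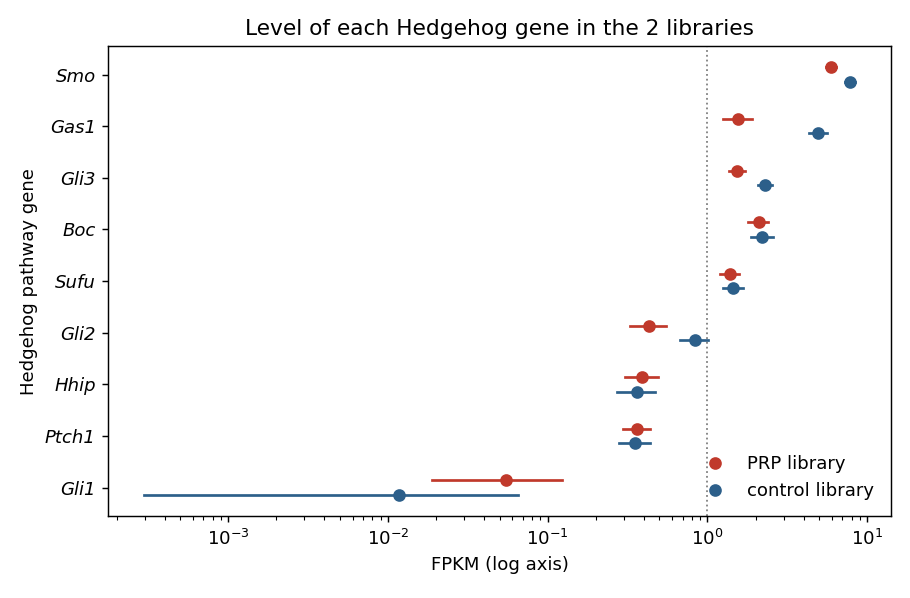
Level of each Hedgehog gene as FPKM on a log axis, with a red point for the PRP library and a blue point for the control library. Horizontal lines are 95% Poisson intervals of counting error and the dotted line marks 1 FPKM. Smo was the most abundant member in both libraries, Gas1 lay at 1.55 FPKM in PRP against 4.93 FPKM in control, and the lines of Gli1 reach down furthest.

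The members spanned more than 2 orders of magnitude on the FPKM scale, which is per length. The length is that of all annotated exons of a gene together, so comparisons of level between genes are approximate. In the control library the order was Smo, Gas1, Gli3, Boc, Sufu, Gli2, Hhip, Ptch1 and Gli1. Neighbours in this order with overlapping intervals were Gli3 with Boc and Hhip with Ptch1. In the PRP library the order was Smo, Boc, Gas1, Gli3, Sufu, Gli2, Hhip, Ptch1 and Gli1. Here the intervals of neighbours overlapped all the way from Boc to Sufu and from Gli2 to Ptch1, while Smo at the top and Gli1 at the bottom stood apart. Gas1 thus ranked above Boc in the control library, at 2.24 times its level, and below it in the PRP library, at 0.742 times its level.

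The receptors came first. Ptch1 (ENSMUSG00000021466, chromosome 13, 63508328 to 63573598, minus strand, mm10) encodes the ligand-binding receptor that holds Smoothened in check and is itself a target of the pathway. Its level was 0.360 FPKM in the PRP library (205 reads) and 0.351 FPKM in the control library (170 reads). The ratio was 1.03 with an interval of 0.762 to 1.38, so no difference was detectable at this depth. Smo (ENSMUSG00000001761, chromosome 6, 29735503 to 29761365, plus strand) encodes Smoothened, the membrane protein that carries the signal into the cell. Its level was 5.93 FPKM in the PRP library (1337 reads) and 7.80 FPKM in the control library (1496 reads). Their ratio of 0.760 (interval 0.684 to 0.845) lay below 1 by more than counting error. The Smo level was 16.5 times the Ptch1 level in PRP and 22.2 times in control.

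Gas1 and Boc encode co-receptors at the cell surface that help Patched to bind ligand. Gas1 (ENSMUSG00000052957, chromosome 13, 60174405 to 60177365, minus strand) is a gene of 1 exon whose product is anchored in the membrane by a lipid. It had 1.55 FPKM in the PRP library (184 reads, interval 1.25 to 1.90) and 4.93 FPKM in the control library (498 reads, interval 4.33 to 5.58). The PRP value was the low one, the intervals of the levels did not overlap, and the ratio was 0.314 (interval 0.245 to 0.401), or 3.18 times more in the control library. On the log2(FPKM + 1) scale the difference was -1.22, and 0.433% of 13401 genes averaging at least 1 FPKM had a difference this low or lower. Of the exon length of Gas1, 19.9% is shared with Gm48488, a long noncoding RNA of the opposite strand, which had 54 reads in PRP and 138 in control. The strand setting of the counting is not stated, so reads of the shared stretch could belong to either gene.

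Boc (ENSMUSG00000022687, chromosome 16, 44485049 to 44558897, minus strand) encodes an immunoglobulin-like co-receptor and, unlike Gas1, shares no exon base with another gene. Its level was 2.09 FPKM in the PRP library (373 reads) and 2.20 FPKM in the control library (334 reads). The ratio was 0.950 (interval 0.767 to 1.18), which does not overlap the interval of Gas1. Cdon, the relative of Boc in the same role and one of the genes named from the list of other reception genes, had 1.40 against 2.41 FPKM (ratio 0.580, interval 0.486 to 0.692). The summed level of Gas1, Boc and Cdon was 5.04 FPKM in PRP and 9.54 FPKM in control. Within this sum Gas1 took 30.8% in PRP against 51.7% in control, Boc 41.5% against 23.1%, and Cdon 27.8% against 25.3%. In PRP the intervals of the Boc and Gas1 levels overlapped, whereas in control Gas1 lay above both others beyond counting error.

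Like Gas1, the markers of FAPs were lower in the PRP library. Pdgfra, which encodes the receptor used to identify FAPs, had 19.8 FPKM in PRP and 28.0 FPKM in control (ratio 0.710, interval 0.680 to 0.740). The Gas1 level was 0.0781 times the Pdgfra level in PRP and 0.176 times in control. Against Dpt, Col3a1, Col1a1 and Osr1 the gap was smaller than against Pdgfra, and against Thy1, Cd34, Dcn and Ly6a it was larger. Dpt, which encodes a matrix protein of fibroblasts and had the lowest difference of the list, had 18.8 FPKM in PRP and 50.2 FPKM in control, and its ratio of 0.374 (interval 0.341 to 0.410) overlapped that of Gas1 within counting error. The collagen genes Col3a1 and Col1a1 had ratios of 0.501 and 0.542, and the other markers that passed the filter ranged up to 0.902 (Ly6a). The part of the marker difference in the values of the Hedgehog genes was not tested.

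The GLI transcription factors were next. Gli1 (ENSMUSG00000025407, chromosome 10, 127329882 to 127341974, minus strand) is the activator that the pathway induces and a common readout of its activity. It had 11 reads in the PRP library (0.0549 FPKM) and 2 reads in the control library (0.0117 FPKM). The level that 3 fragments would give is 0.0299 FPKM in PRP and 0.0352 FPKM in control, so Gli1 lay below this floor in control and above it in PRP. The ratio of 4.68 has an interval of 0.547 to 218, which leaves the direction unresolved, although intervals on undivided reads (1.02 to 43.5) would just exceed 1. In addition, 6.55% of its exon length is shared with genes of the opposite strand, Arhgap9 and Gm47200.

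Gli2 (ENSMUSG00000048402, chromosome 1, 118834132 to 119053619, minus strand) encodes the main activator at the start of signaling. Its level was 0.428 FPKM in the PRP library (118 reads) and 0.832 FPKM in the control library (195 reads). The ratio was 0.515 (interval 0.366 to 0.719), the lowest of the members after Gas1, but both values lay below 1 FPKM. Gli3 (ENSMUSG00000021318, chromosome 13, 15463235 to 15730026, plus strand) encodes the factor that acts mostly as a repressor when no ligand is present. It had 1.54 FPKM in the PRP library (592 reads) and 2.29 FPKM in the control library (751 reads), a ratio of 0.671 (interval 0.574 to 0.783). The intervals of Gli2 and Gli3 overlapped, so a different factor for the activator and the repressor gene was not detectable. Gli3 took 76.1% of the summed GLI level in PRP and 73.1% in control, and the sum was 2.02 against 3.14 FPKM.

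**Figure D2:**
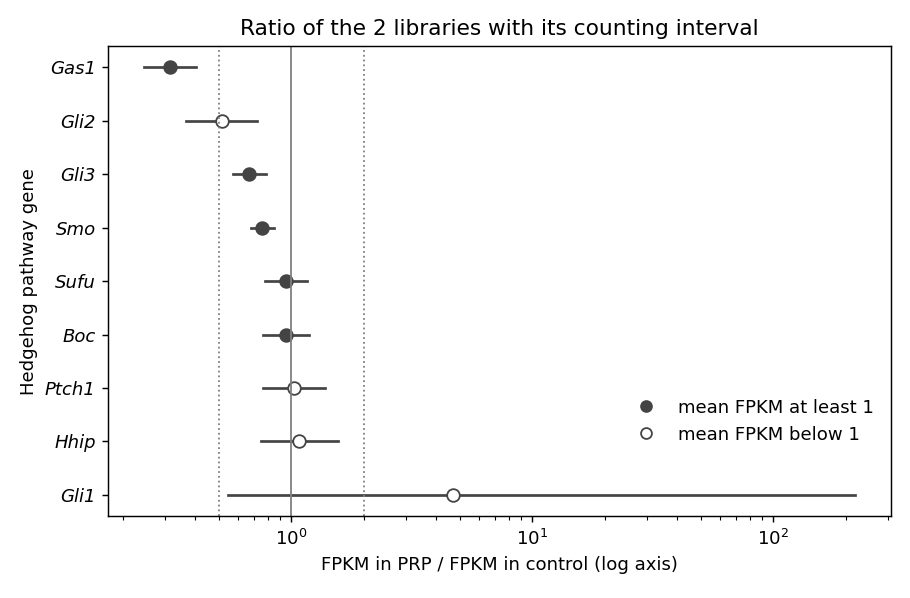
Ratio of FPKM in PRP to FPKM in control for each Hedgehog gene on a log axis, with its 95% Clopper-Pearson interval of counting error as a line. Filled points have a mean FPKM of at least 1 and open points a lower one, the solid line marks no change and the dotted lines mark 2-fold. The intervals of Gas1, Gli2, Gli3 and Smo lie below 1, and that of Gli1 runs from 0.547 to 218.

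The inhibitor genes Sufu and Hhip had similar values in both libraries. Sufu (ENSMUSG00000025231, chromosome 19, 46396896 to 46488804, plus strand) encodes the protein that holds GLI factors in the cytoplasm. Its level was 1.38 FPKM in the PRP library (426 reads) and 1.45 FPKM in the control library (382 reads), with a ratio of 0.949 (interval 0.777 to 1.16). Hhip (ENSMUSG00000064325, chromosome 8, 79965851 to 80058006, minus strand) encodes a membrane decoy that binds Hedgehog ligands and, like Ptch1 and Gli1, is a target of the pathway. It had 0.390 FPKM in the PRP library (142 reads) and 0.361 FPKM in the control library (112 reads). The ratio was 1.08 (interval 0.749 to 1.56). The intervals allow ratios from 0.777 to 1.16 for Sufu and from 0.749 to 1.56 for Hhip, so an equal level is not shown.

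For the 2-fold comparison, only genes averaging 1 FPKM or more were used, as log2(FPKM + 1) in PRP minus control, a scale that understates the change of low genes. Gli3, Smo, Sufu, Gas1 and Boc passed this filter, each with at least 1 FPKM in both libraries, while Gli1, Gli2, Ptch1 and Hhip did not. All 5 were lower in the PRP library, against 6586 of the 13401 genes, and their median difference was -0.34, against 0.01 over all these genes. Only Gas1 was at least 2-fold lower, beside 0.828% of all tested genes, and 0 members were at least 2-fold higher, beside 2.00%. With a pseudocount of 5 in place of 1 the difference of Gas1 was -0.60, short of 2-fold. At a 1.5-fold limit the count was again Gas1 alone, beside 4.57% of the genes lower and 6.15% higher. Sufu (-0.04) and Boc (-0.05) lay close to the median of all genes, so the common sign rests on Gas1 (-1.22), Gli3 (-0.38) and Smo (-0.34).

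**Figure D3:**
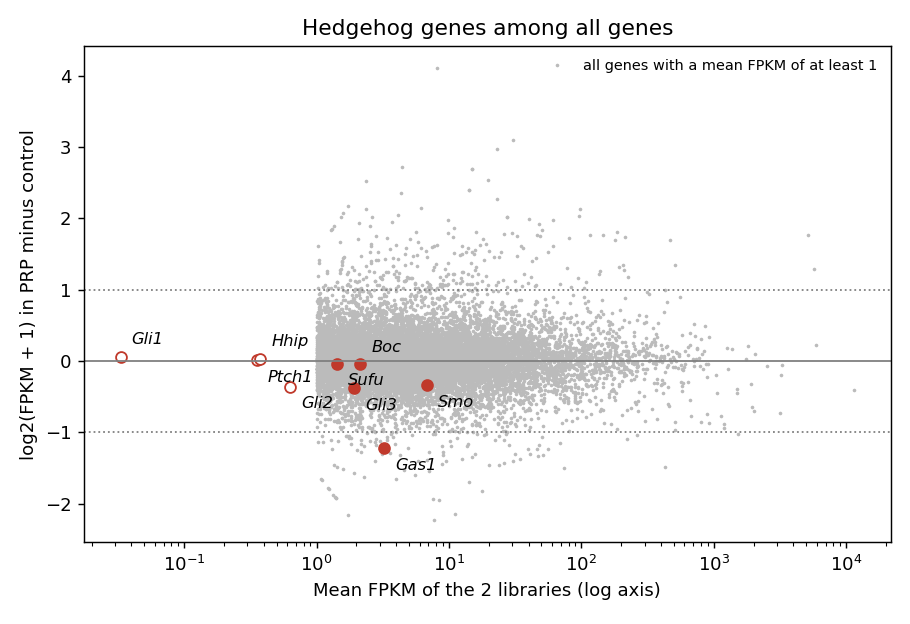
Difference in log2(FPKM + 1), PRP minus control, against the mean FPKM of the 2 libraries on a log axis. Grey dots are the 13401 genes that averaged at least 1 FPKM, red points are the Hedgehog genes (open below that mean), and dotted lines mark 2-fold. Gas1 lies below the lower dotted line at -1.22, and the other 8 lie between the dotted lines.

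The ligand genes were near the detection limit, at 6 reads or fewer in each library. Desert hedgehog (Dhh) had 6 reads in each library (0.0340 FPKM in PRP and 0.0400 in control), Indian hedgehog (Ihh) 2 reads in each, and Sonic hedgehog (Shh) 2 reads in PRP and 0 in control. These numbers allow no comparison. Schwann cell and endothelial markers bear on the sources of Dhh. Of 6 Schwann cell markers 5 were measured and 1, S100b (0.739 FPKM in PRP and 2.29 in control), had a mean of at least 1, with the list summing to 1.23 against 2.99 FPKM. The defining gene Sox10 had 0.0327 and 0.0384 FPKM. The 5 endothelial markers summed to 9.45 against 5.38 FPKM, almost all of it from Tek and Kdr. Kdr had a ratio of 2.82 (interval 2.43 to 3.28) and Tek one of 1.33 (interval 1.14 to 1.55). Pecam1, at a far lower level, had 0.188 FPKM in PRP and 0.0470 in control, with an interval of the ratio of 1.49 to 13.4. The defining gene Cdh5 had 0.0949 and 0.0976 FPKM. The intervals of Cdh5 (0.308 to 3.15) and Emcn (0.587 to 2.38) included 1. Of the ligand and release list only Disp1, which encodes the transporter that sends ligand out of cells, passed the filter, at 5.26 FPKM in PRP and 4.40 in control (ratio 1.20, interval 1.05 to 1.36).

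The wider pathway was covered by 5 lists with 79 genes besides the members. The filter was passed by 57 of them, of which 42 had their lower value in PRP and 15 in control, at a median difference of -0.14. The interval of the ratio lay below 1 for 28 and above 1 for 9 of the 56 with whole reads. Over all genes past the filter, 6586 of 13401 were lower in PRP. The interval lay below 1 for 26.1% and above 1 for 26.1% of those with whole reads. These shares are also the background of the list counts that follow. Among 6 other reception genes the median was -0.36 with 5 lower. Gpc4 and Gpc6, which encode heparan sulfate proteoglycans of the cell surface, followed Cdon with ratios of 0.698 (33.4 against 47.8 FPKM, interval 0.656 to 0.744) and 0.688 (4.84 against 7.03 FPKM, interval 0.618 to 0.765).

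In the signal relay from Smoothened to GLI, 13 of 18 genes were lower and 5 higher, with a median of -0.09. Prkaca, the gene of the main catalytic subunit of protein kinase A, was lowest at 11.5 against 22.3 FPKM (ratio 0.514, interval 0.462 to 0.570). Evc, which encodes a partner of Smoothened at the base of the cilium, had 5.34 against 8.11 FPKM (ratio 0.659, interval 0.601 to 0.722). Spop, which encodes the adaptor that marks GLI2 and GLI3 for destruction, had the higher value in PRP, 70.2 against 48.3 FPKM (a ratio of 1.45 with an interval of 1.38 to 1.53). None of the 18 was past 2-fold on the log2(FPKM + 1) scale.

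The list of primary cilium genes had 15 lower and 6 higher of 21, with a median of -0.15. Its largest differences were those of Tctn1 (2331 against 1013 reads, ratio 1.96, interval 1.76 to 2.18) and Rpgrip1l (1.37 against 2.18 FPKM, ratio 0.628, interval 0.551 to 0.715), both genes of the transition zone at the base of the cilium. Ofd1, a gene of the basal body, had 15.3 against 11.3 FPKM (ratio 1.35, interval 1.24 to 1.47). Hvcn1 and Gm15481 of the opposite strand overlap 25.5% of the exon length of Tctn1, so its value is uncertain. No cilium gene was past 2-fold on the log2(FPKM + 1) scale.

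Genes reported elsewhere as Hedgehog targets had a median of -0.17 over 11 genes, with 9 lower and 2 higher. The lowest were the cyclin genes Ccne1 (4.68 against 10.6 FPKM, ratio 0.442, interval 0.378 to 0.516), Ccnd2 (20.5 against 33.2 FPKM, ratio 0.619) and Ccnd1 (28.6 against 43.7 FPKM, ratio 0.655), which drive the cell cycle and answer to many signals. Of the exon length of Ccnd1, 23.4% is shared with LTO1 of the opposite strand. Foxf1, a forkhead factor induced by Hedgehog in mesenchyme and named here after its values were seen, had 2.92 FPKM in PRP against 1.69 in control (ratio 1.73, interval 1.29 to 2.34). Timp3, a secreted inhibitor of metalloproteinases that was also chosen after its values were seen and shares 21.3% of its exon length with Syn3 of the opposite strand, had 18.9 against 17.2 FPKM (ratio 1.10, interval 1.04 to 1.16). Ptch1 and Hhip, the members that are targets themselves and were detected well above the floor, had intervals that included 1.

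**Figure D4:**
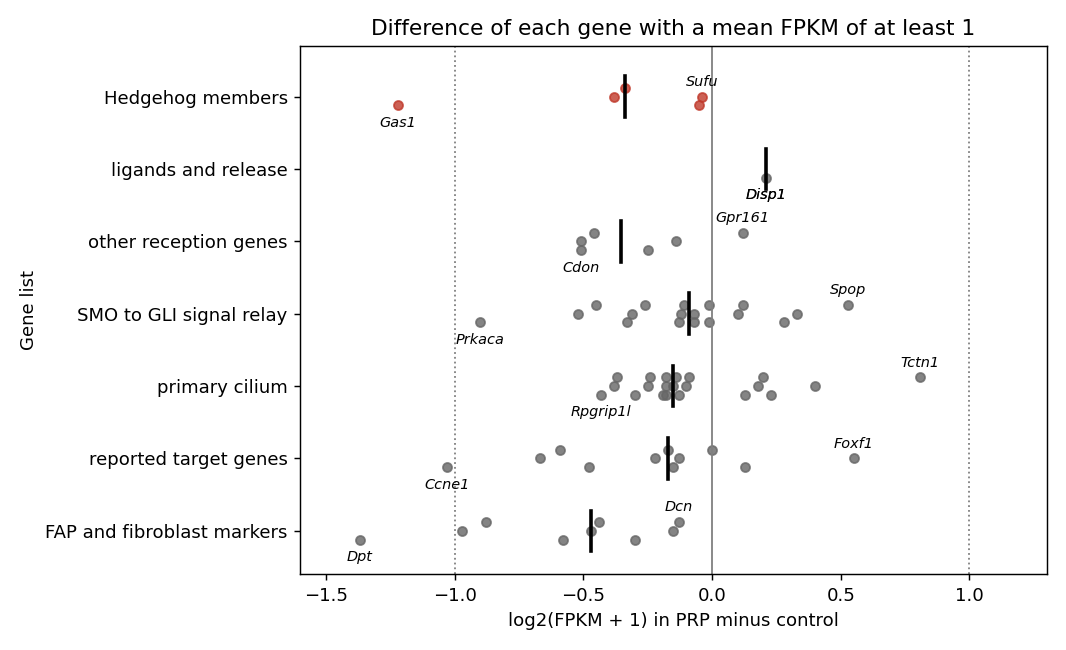
Difference in log2(FPKM + 1), PRP minus control, of each gene averaging at least 1 FPKM, by gene list, with the Hedgehog members in red. Black bars are list medians and dotted lines mark 2-fold, and the lowest and highest gene of each list is named. The members have a median of -0.34 and the FAP and fibroblast markers one of -0.47.

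The study names let-7f and miR-16 as active cargo of the exosomes, so the longest 3′UTR of each Hedgehog gene in GENCODE M21 was searched for a match to their seeds. The mature mouse sequences, from RefSeq (GRCm38.p6), are shown 5′ to 3′ with the seed, bases 2 to 8, in capitals, because the sites in the transcripts pair with it.
let-7f-5p: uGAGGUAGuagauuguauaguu
miR-16-5p: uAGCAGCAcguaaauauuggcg
The seeds differ, and the matching sites are CTACCTC for let-7f and TGCTGCT for miR-16. Of the 9 members, 0 had the let-7f site, which is in 9.85% of the 10287 tested genes with a 3′UTR. The miR-16 site was in 2 of the 9 members, Ptch1 being one of them, and in 24.6% of the tested genes.

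The sites in Ptch1 and in the reception gene Cdon are given as 30 bases of the transcript with the seed match in capitals.
Ptch1, miR-16 site (chr13:63510762-63510791, minus strand): agcatatgtcgcTGCTGCTtaaatattgta
Cdon, miR-16 site (chr9:35507623-35507652, plus strand): tattaaaagagaaTGCTGCTttcacgtgca
Coordinates are on GRCm38 (mm10), and each site lies in the 3′UTR. Neither site is followed by an A, the base that often strengthens such a site.

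The genes with and without sites can be set beside their levels. Ptch1, with its miR-16 site, had a ratio of 1.03, whereas Gas1, Gli2, Gli3 and Smo, whose intervals lay below 1, had neither site in 3′UTRs of 1382, 1653, 3245 and 1080 bases. Cdon, with its miR-16 site 3416 bases into a 3′UTR of 3432 bases, had a ratio of 0.580. Of the other pathway genes named above as lower, Gpc6, Ccne1, Ccnd2 and Ccnd1 had a miR-16 site, while Gpc4, Prkaca, Evc and Rpgrip1l had neither site. Among all 79 genes of the 5 other lists, 26 had the miR-16 site (32.9%, against 24.6% of the tested genes). A seed match describes the sequence and not a response, and the part of the microRNAs in these values was not tested.

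The GLI consensus GACCACCCA was searched on both strands of RefSeq promoter windows of 300 bases, from 250 bases before to 50 bases after the start. The windows of 7 members were searched, without Gli1 and Boc, and 0 of the 7 held the motif, which is present in 0.253% of 32851 windows. With so rare a motif, 0 of 7 windows is the likely result for any genes, so nothing follows for the members. Known GLI sites of target genes can lie outside such windows.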

How the data were processed

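RNA-seq was performed on 1 PRP and 1 control library of FAPs, built with a stranded mRNA kit from TRIzol RNA. The submitters' processing notes name fastp 0.23.4, STAR 2.5.3a, featureCounts and mm10. The deposited values are FPKM as computed by the authors; how counts became FPKM, the annotation release and the strand setting are not given in the sources used here. Exon lengths and coordinates came from GENCODE M21 (GRCm38), which held 41492 of the 44291 genes (93.7%). Undoing the scaling gave whole reads, within 0.001 reads, in both libraries for 93.8% of the genes above 0.

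The difference was log2(FPKM + 1) in PRP minus control, for the 13401 genes averaging at least 1 FPKM. No test was run, since each group has 1 library. The members and gene lists were chosen with earlier results of these data known. Named by rule were all members, the 3 ligands, the 3 genes of each other pathway list with the largest absolute difference, and the highest gene of marker lists. Further marker genes and other genes were named outside this rule, with their values known. The alternatives were pseudocounts of 0.1 and 5, no filter or one at 5 FPKM, rescaling, centring, a 1.5-fold limit and undivided reads. Functions were tested on simulated data. Python 3.11.15, NumPy 2.4.6, pandas 2.3.3, SciPy 1.17.1 and matplotlib 3.10.9 were used. Some genes and sites of the lists are not reported here.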

Additional observations from a re-analysis of the deposited data

How the results depend on the processing

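No paired analysis was possible because PRP and control had 1 library each. With a pseudocount of 5 the count of Hedgehog members past 2-fold went from 1 to 0, their median to -0.16 and that of the other reception genes to -0.19, a shrinkage that a larger pseudocount brings by construction. Without a filter, 3 members were higher, their median was -0.05, and that of the ligand and release list was 0.00. At a mean FPKM of at least 5 only Smo was left of the members, so 1 was lower and 0 were past 2-fold, and the target list had a median of -0.54 over fewer genes. Over all tested genes the number past 2-fold was 739 with a pseudocount of 0.1, 113 with one of 5, 210 at 5 FPKM, 596 rescaled to a common sum, 638 rescaled without mitochondrial and top genes, and 1436 at 1.5-fold. For single members the log2 difference of Gas1 ranged from -1.61 to -0.60, of Gli2 from -0.82 to -0.10, of Gli3 from -0.55 to -0.16 and of Smo from -0.41 to -0.23. The difference of Ptch1, 0.01, became 0.00 under 3 of the 5 settings tried for it. On undivided reads the interval of Gli1 moved above 1, and 4 members stayed below 1. Depth is too low to give a direction for Gli1 and the ligand genes.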

Other observations

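Among the genes of the 5 other lists, 22 had a mean FPKM below 1. Among these, and chosen after their values were seen, Bbs1, Bcl2 and Cdk6 had an interval of the ratio below 1 and Lrp2 had one above 1. Lrp2, which encodes the large endocytic receptor megalin, had 0.275 FPKM in the PRP library (184 reads) and 0.105 FPKM in the control library (60 reads), a ratio of 2.61 (interval 1.71 to 4.08). Bcl2, a gene that protects cells from apoptosis, had 0.653 against 1.10 FPKM (ratio 0.594, interval 0.466 to 0.754). Scube2, which encodes a secreted helper of ligand release and was likewise chosen after its values were seen, had 2 reads in PRP and 12 in control, and its interval of 0.00308 to 1.17 included no change. Macrophage and leukocyte markers summed to 5.36 FPKM in PRP against 2.99 in control, mostly from Cd68, with Ptprc at 0.0109 and 0.0192 FPKM. Pericyte and smooth muscle markers summed to 18.7 against 12.2 FPKM, mostly from Myh11, myogenic markers to 2.91 against 3.43 FPKM, mostly from Des, and platelet markers to 1.55 against 1.40 FPKM. Pax7 and Myog were at 0 in both libraries. The part of these cell types in the values of the Hedgehog genes was not tested.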
